A study of Mus musculus with 6 samples.

Results

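Solute carriers are the membrane proteins that move amino acids, sugars, nucleosides, metals, inorganic ions and cofactors across the plasma membrane and the membranes of organelles. The solute carrier probes were all non-control probes whose gene name on the array has the form Slc, a family number, the letter a and a member number, and whose spots were flagged well above background on all 6 arrays. This gave 227 probes of 178 genes, of 458 probes of 339 genes with such a name and of 55681 probes on the array. The members were thus chosen by their detection flags, and detection itself is not a result here. A few symbols with this prefix belong to proteins that are no carriers (Slc4a1ap, Slc7a6os, Slc9a3r1, Slc9a3r2 and the pseudogene Slc2a4rg-ps), and they were kept as members of the rule but set apart in the counts by class.

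The RNA came from 1676 cells, a mouse pre-B cell line with the genotype SLP-65-/- LAT-/-, so that all 6 arrays share the loss of both adaptor proteins. All cultures were kept in excess IL-7, the growth factor of these cells, and were infected with a retroviral vector and selected with puromycin. The 3 groups of 2 arrays each carried an empty control vector, a vector expressing hsa-miR-26a-2 (called miR-26a), or a vector expressing a miR-26 sponge, an RNA with repeated binding sites that sequesters the miR-26 family. Replicate 1 and replicate 2 are 2 independent experiments. The empty vector is the control of both constructs, as none of the 6 arrays held a scrambled sponge. The experiments lay in separate rows of the single slide and the groups in separate columns, so that slide column and group cannot be told apart. All 8 pre-B marker genes checked were well above background on all 6 arrays, with a log2 of their summed signal of 18.79 to 18.89 on the control arrays, 18.76 to 18.85 on the miR-26a arrays and 18.76 to 18.92 on the sponge arrays. Among markers of other cells, Cd3g and Cd8a of T cells, Hbb-b1 of red cells and Col1a1 and Pdgfrb of stroma were well above background on no array, and 2 of 4 T cell, 2 of 4 myeloid, 1 of 4 red cell and 1 of 3 stroma genes were on all 6. The log2 of the summed signal on the control, miR-26a and sponge arrays was 10.45 to 10.47, 10.34 to 10.48 and 10.06 to 10.24 for the T cell list and 11.82 to 12.23, 11.92 to 12.15 and 11.57 to 12.15 for the myeloid list. It was 5.35 to 5.59, 5.69 to 5.85 and 5.40 to 5.48 for the red cell list and 4.76 to 4.80, 4.35 to 4.63 and 4.66 to 5.04 for the stroma list. Of single marker probes, 1 of 3 Itgam probes (myeloid) was lower in miR-26a against control, at -0.82 (adjusted p = 0.0072), while the brightest gave 0.06 (adjusted p = 0.744) and the third was too dim to be tested. One of 2 probes of the pre-B gene Pax5 was lower in miR-26a than in sponge cells, at -0.36 (adjusted p = 0.028), and the other gave -0.25 (adjusted p = 0.108). The part of these in the results was not tested.

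The question of the comparison is which transporter transcripts differ when the miR-26 family is raised or sequestered. Amino acid carriers such as the Slc7 family and Slc38 family feed protein synthesis, Slc2 members let glucose pass down its gradient, Slc5 members pull sugars and vitamins in with sodium, Slc28 and Slc29 members move nucleosides, and the Slc25 family exchanges metabolites across the inner mitochondrial membrane. A microRNA lowers transcripts that hold a match to its seed, the bases 2 to 8 of its mature strand. The mature mouse strands from RefSeq (build GRCm38.p6) are printed so that the shared seed, in capitals, can be seen.
miR-26a-5p: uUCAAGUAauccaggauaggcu
miR-26b-5p: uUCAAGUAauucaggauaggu
The 2 strands share the seed and differ in the rest. The miR-26a vector carried the human precursor, whose own sequence was not read from a file here.

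Of the 227 probes, 189 probes of 156 genes were bright enough to be tested (processed signal above 50 on at least 4 arrays), and 38 dim ones were not. All values that follow are quantile-normalized log2 signals, and a difference is a difference of these values fitted by limma with the experiment as a block and with p-values corrected for all 20168 tested probes (Benjamini-Hochberg). The deposited files give intensities and no counts. With 2 arrays per group, the SE and p-values rest on a spread shared by all groups. For each probe limma draws this spread towards that of all fitted probes.

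In miR-26a cells, 31 of the 189 solute carrier probes differed from control at an adjusted p under 0.05 in limma, 12 of them lower and 19 higher, from 10 and 16 genes. Across all 20168 tested probes, 9.64% were called, with 5.14% lower and 4.50% higher, against 6.35% and 10.1% of the solute carrier probes. Amino acid carriers made up 6 of the 12 lower probes and none of the 19 higher ones. The 6 include both Slc6a9 probes, which share most of their bases and are not separate measurements. Of the higher probes, 5 were mitochondrial carriers, 5 were sugar carriers and 3 were vitamin carriers. The median difference over the 189 probes was 0.04 on the log2 scale, beside 0.01 over all tested probes. In bulk RNA, fewer cells of a type and less RNA per cell cannot be told apart. Fewer of these calls remained when 1 array was left out. Such a fit has fewer arrays, so a lost call does not show that this array carried the difference. Without control replicate 1 only Slc7a3 of the 31 probes was still called, without control replicate 2 only Slc7a3, Slc5a9 and Slc5a11, without miR-26a replicate 1 or 2 there were 21 and 16, and there were 18 with either sponge array left out. When the experiment was not used as a block, 3 of the 31 remained (Slc7a3, Slc2a9 and Slc37a3). All 31 kept their direction in each of these fits. The balance of 12 lower and 19 higher depended on the processing, with 22 and 21 after normexp background correction, 4 and 3 when all probes well above background on all 6 arrays were fitted, and none when all probes of the array were.

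**Figure D1:**
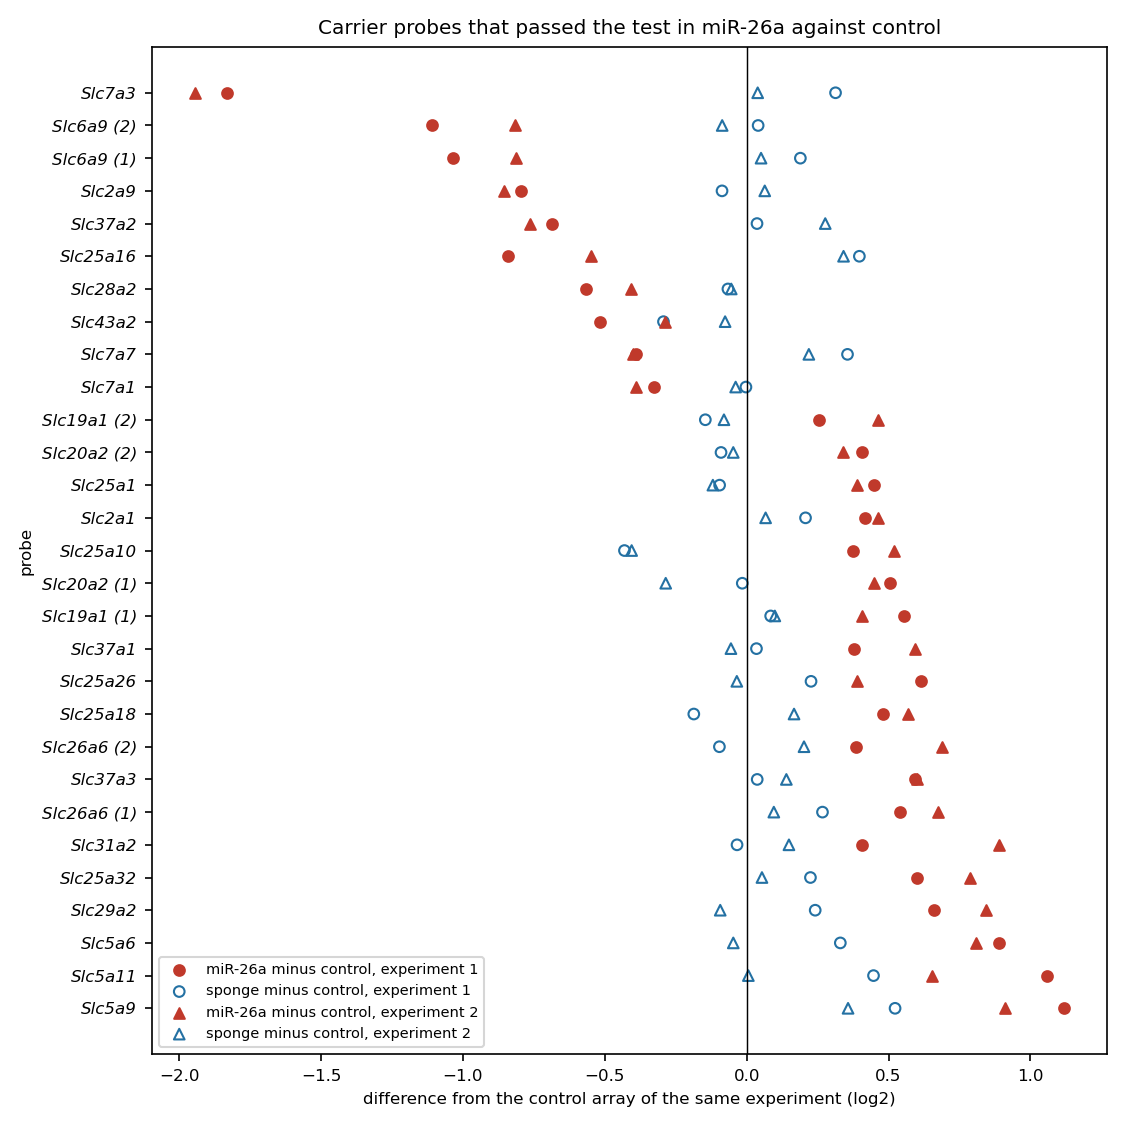
Difference of the miR-26a array (filled) and the sponge array (open) from the control array of the same experiment, in log2 units, for 29 of the 31 solute carrier probes called in miR-26a against control; circles are experiment 1 and triangles experiment 2, and numbers in brackets tell apart probes of 1 gene. The filled points lie on the same side of 0 in both experiments for every probe drawn, and the open points lie on both sides of 0.

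The largest fall among the 189 tested probes in miR-26a cells was that of Slc7a3, a plasma membrane carrier of arginine and lysine. Its signal was 6.87 and 7.29 on the control arrays, 5.04 and 5.35 on the miR-26a arrays and 7.19 and 7.33 on the sponge arrays. Both miR-26a arrays lay far below the other 4, which overlapped with each other. The miR-26a values were flagged well above background but lay under the signal limit of the test. The probe was thus tested because of its signal on the other 4 arrays, and the size of the fall rests on these dim miR-26a values. The fitted difference was -1.89 ± 0.09 (SE, adjusted p = 0.00239), a 3.70-fold lower signal, and it was called in all 6 fits that left out 1 array, with a greatest adjusted p of 0.026. The probe lies at chrX:98274644-98274703 (mm9, minus strand), and its first 30 of 60 bases, printed because this is the largest difference among the tested carriers, hold no match to the miR-26 seed.
Slc7a3 probe: ggatatgaaataatgctctgtatttcttgt
Against the sponge, the same probe gave a fitted difference of -2.06 ± 0.09 (SE, adjusted p = 0.00139). In sponge cells it stood at 0.18 (adjusted p = 0.385) from control, with a 95% confidence interval of -0.04 to 0.39.

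Slc6a9, the glycine carrier that takes up glycine with sodium and chloride, had the next largest fall. The brighter of its 2 probes read 8.76 and 9.26 on the control arrays, 7.72 and 8.45 on the miR-26a arrays and 8.95 and 9.31 on the sponge arrays. Within each experiment the miR-26a array was the lowest of the 3, and both miR-26a arrays were below all 4 others. The fitted difference was -0.92 ± 0.10 (SE, adjusted p = 0.00912) for this probe and -0.96 ± 0.11 (SE, adjusted p = 0.0106) for the other. These 2 probes are not separate measurements of the gene, since 51 of their 60 bases are the same and their starts lie 9 bases apart on chromosome 4 (mm9, plus strand). Their first 30 bases are printed with the 21 bases shared between the printed parts in capitals.
Slc6a9 probe at chr4:117541842-117541901: gcccagtgtGTGCAGAACTAGGGTTTTAAA
Slc6a9 probe at chr4:117541851-117541910: GTGCAGAACTAGGGTTTTAAAgtccgtagg
Both calls were lost without control replicate 1 and without control replicate 2, where the adjusted p reached 0.0821 and 0.0911.

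The other called amino acid carriers fell by less. Slc43a2, a carrier of neutral amino acids such as leucine and phenylalanine, read 9.68 and 9.73 on the control arrays, 9.17 and 9.44 on the miR-26a arrays and 9.39 and 9.66 on the sponge arrays, a difference of -0.40 ± 0.08 (SE, adjusted p = 0.0444). The miR-26a arrays were below both controls, but the first sponge array lay between them. Slc7a7, the light chain of the exchanger that lets cationic amino acids leave the cell, read 10.26 and 10.29 on the control arrays, 9.87 and 9.89 on the miR-26a arrays and 10.62 and 10.51 on the sponge arrays. Here the sponge arrays were the highest and the miR-26a arrays the lowest, with a difference of -0.40 ± 0.07 (SE, adjusted p = 0.0315) from control. Slc7a1, the widely used arginine carrier, read 13.0 and 13.05 on the control arrays, 12.68 and 12.66 on the miR-26a arrays and 13.0 and 13.01 on the sponge arrays and differed by -0.36 ± 0.07 (SE, adjusted p = 0.0323). The calls of Slc43a2, Slc7a7 and Slc7a1 were each lost when any 1 of the 6 arrays was left out.

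The other amino acid carriers of the fixed list did not pass the test in miR-26a against control. The glutamine carrier Slc1a5 gave -0.03 (adjusted p = 0.862) and -0.10 (adjusted p = 0.388) with its 2 probes. Slc3a2, the heavy chain that brings the Slc7 light chains to the membrane, gave -0.03 (adjusted p = 0.836). The leucine carrier Slc7a5 gave -0.31 (adjusted p = 0.0594) and -0.29 (adjusted p = 0.145). The sodium-coupled glutamine carriers Slc38a1 and Slc38a2 gave -0.31 (adjusted p = 0.0567) and -0.23 (adjusted p = 0.169), and Slc7a6 gave 0.19 (adjusted p = 0.222). Over all 29 tested amino acid carrier probes, of 21 genes, 6 were called lower and none higher, 21 differences were below 0 and 8 above it, and the median was -0.14, beside 0.01 for all probes. The 6 probes called lower include both of the overlapping Slc6a9 probes. The cystine carrier Slc7a11 had no probe well above background on all 6 arrays.

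**Figure D2:**
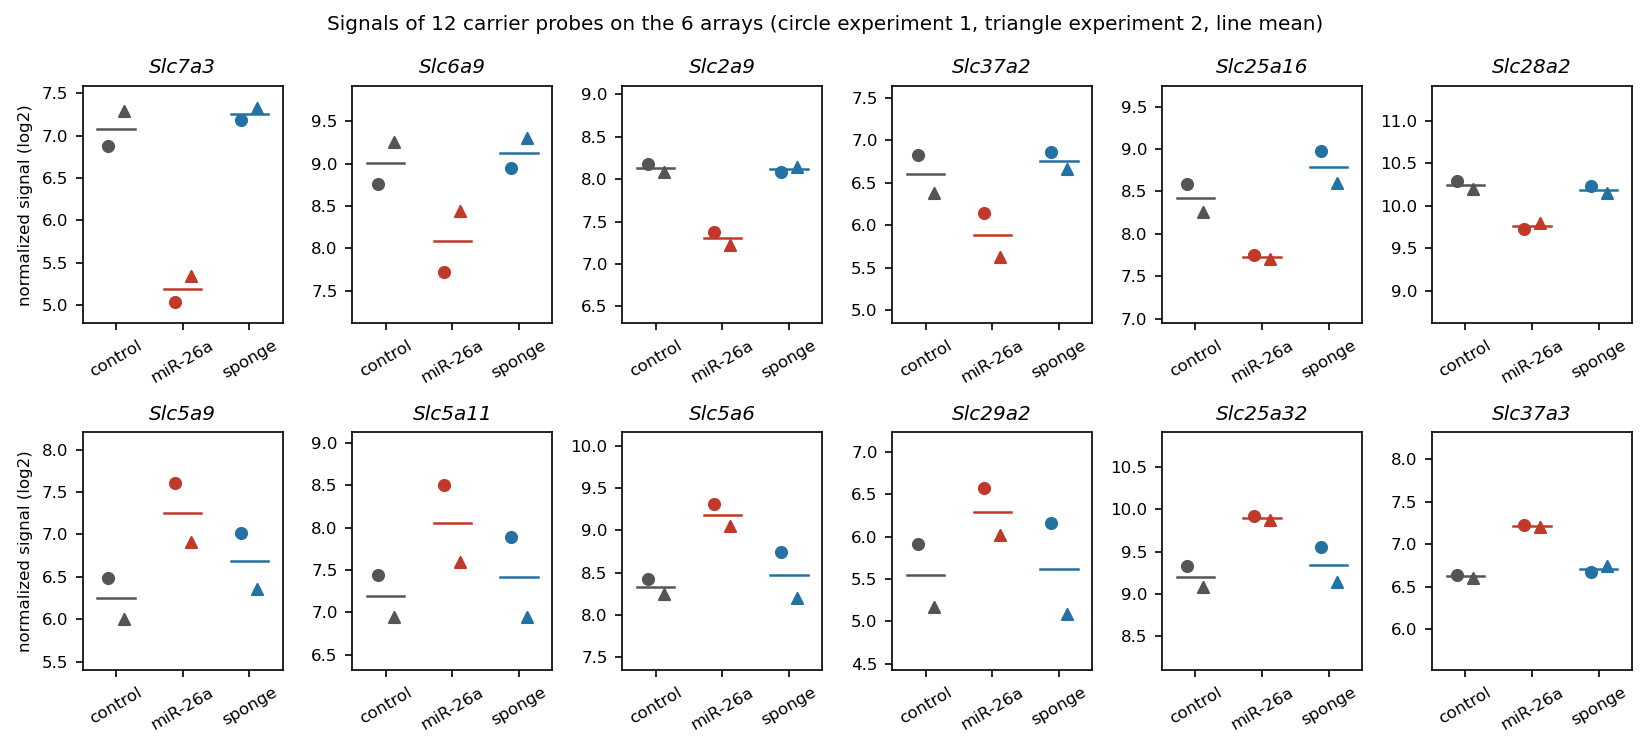
Normalized log2 signal of 12 solute carrier probes on each array, by group; circles are experiment 1, triangles experiment 2, and the line is the mean of the 2 arrays. Each panel spans 2.8 log2 units but starts at its own level. The upper row holds 6 probes called lower in miR-26a against control, led by Slc7a3, and the lower row 6 called higher, in which Slc5a9, Slc5a11 and Slc29a2 also differ between the experiments.

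Sugar carriers moved in both directions. Of 16 tested probes of 15 genes, 2 were called lower and 5 higher in miR-26a cells, and the median difference was 0.03. Slc2a9, a member of the glucose carrier family that chiefly carries urate, read 8.17 and 8.08 on the control arrays, 7.38 and 7.22 on the miR-26a arrays and 8.09 and 8.14 on the sponge arrays. Its miR-26a arrays lay below the other 4, which did not separate, and the difference was -0.83 ± 0.08 (SE, adjusted p = 0.00748). Slc37a2, a sugar phosphate exchanger of the endoplasmic reticulum, read 6.83 and 6.38 on the control arrays, 6.14 and 5.62 on the miR-26a arrays and 6.86 and 6.66 on the sponge arrays, a difference of -0.72 ± 0.10 (SE, adjusted p = 0.0142). Both calls were lost when either control array was left out, with adjusted p up to 0.0766 and 0.121.

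Slc5a9, a sodium-coupled carrier of mannose and glucose, had the largest rise of the 189 tested probes and read 6.49 and 6.0 on the control arrays, 7.61 and 6.91 on the miR-26a arrays and 7.01 and 6.36 on the sponge arrays. The experiments differed, with every array of the first above its partner of the second, and within each experiment the order was control, sponge, miR-26a. The fitted difference was 1.01 ± 0.08 (SE, adjusted p = 0.00543), a 2.02-fold higher signal. Slc5a11, a sodium-coupled carrier of myo-inositol, read 7.44 and 6.94 on the control arrays, 8.50 and 7.60 on the miR-26a arrays and 7.89 and 6.95 on the sponge arrays, a difference of 0.86 ± 0.12 (SE, adjusted p = 0.0171). The first sponge array of Slc5a11 was above the second miR-26a array, so that these groups overlapped unless compared within an experiment. Slc37a3 read 6.64 and 6.61 on the control arrays, 7.23 and 7.21 on the miR-26a arrays and 6.67 and 6.74 on the sponge arrays, with nearly equal replicates and a difference of 0.60 ± 0.07 (SE, adjusted p = 0.0106). The calls of Slc5a9 and Slc5a11 were lost without control replicate 1 (adjusted p 0.06 and 0.0833), and that of Slc37a3 with either control array left out (up to 0.109).

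Slc37a1, another member of the sugar phosphate family, gave 0.49 (adjusted p = 0.0351) and was called in 1 of the 6 fits that left out 1 array (adjusted p up to 0.223). The glucose carrier Slc2a1 of the plasma membrane read 10.73 and 10.54 on the control arrays, 11.14 and 11.01 on the miR-26a arrays and 10.93 and 10.61 on the sponge arrays and differed by 0.44 ± 0.08 (SE, adjusted p = 0.0282). Both miR-26a arrays were the highest within their experiment, and the call was lost with either control array left out and without miR-26a replicate 2 (adjusted p up to 0.212). The second plasma membrane glucose carrier, Slc2a3, read 7.90 and 8.09 on the control arrays, 7.22 and 8.02 on the miR-26a arrays and 8.38 and 8.16 on the sponge arrays. Its replicates were far apart, and the difference of -0.37 ± 0.23 (SE, adjusted p = 0.357) did not pass. The intracellular Slc2a8 gave -0.09 (adjusted p = 0.46) and the glucose 6-phosphate carrier Slc37a4 -0.07 (adjusted p = 0.697). Slc2a6 had no member probe.

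Nucleoside carriers were few and went apart. Among 5 tested genes, with 1 probe each, 1 was lower and 1 higher. Slc28a2, which takes up purine nucleosides with sodium, read 10.30 and 10.20 on the control arrays, 9.73 and 9.79 on the miR-26a arrays and 10.23 and 10.15 on the sponge arrays, a difference of -0.49 ± 0.08 (SE, adjusted p = 0.0204). Slc29a2, which lets nucleosides pass down their gradient, read 5.92 and 5.18 on the control arrays, 6.58 and 6.02 on the miR-26a arrays and 6.16 and 5.08 on the sponge arrays. Experiment 1 was above experiment 2 in every group, and within each experiment miR-26a was the highest, with a difference of 0.75 ± 0.13 (SE, adjusted p = 0.0271). The probe of Slc29a1, of the same family, gave -0.02 (adjusted p = 0.925), and Slc29a3 of lysosomes gave 0.12 (adjusted p = 0.494). Slc28a2 was called in 1 of the 6 fits that left out 1 array and Slc29a2 in 3 of the 6, with adjusted p up to 0.183 and 0.18, and both were lost when either control array was left out.

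Of 10 vitamin carrier probes of 8 genes, 3 were called in miR-26a cells, each of them higher, with a class median of 0.16. Slc19a1 and Slc46a1 bring folate into the cell. The brighter Slc19a1 probe read 11.37 and 11.08 on the control arrays, 11.92 and 11.49 on the miR-26a arrays and 11.45 and 11.18 on the sponge arrays, a difference of 0.48 ± 0.08 (SE, adjusted p = 0.0211), and the dimmer one, in a distant part of the gene, gave 0.36 ± 0.08 (SE, adjusted p = 0.0492). The 2 probes of Slc46a1 did not pass, at 0.27 (adjusted p = 0.0612) and 0.17 (adjusted p = 0.268). Slc5a6, the sodium-coupled carrier of biotin and pantothenate, read 8.42 and 8.24 on the control arrays, 9.31 and 9.05 on the miR-26a arrays and 8.75 and 8.20 on the sponge arrays. It differed by 0.85 ± 0.11 (SE, adjusted p = 0.0124), and the sponge arrays did not separate from the controls. When either control array was left out, none of the Slc5a6 and Slc19a1 probes was still called, and over the 6 fits that left out 1 array the adjusted p reached 0.101 for Slc5a6 and 0.184 for the brighter Slc19a1 probe.

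The mitochondrial Slc25 family was the largest class, with 40 tested probes of 33 genes, of which 1 was called lower and 5 higher, and the median was 0.09. The lower one was Slc25a16, a carrier linked to coenzyme A, at 8.58 and 8.25 on the control arrays, 7.74 and 7.71 on the miR-26a arrays and 8.98 and 8.59 on the sponge arrays. Its miR-26a arrays were the lowest and its sponge arrays the highest of each experiment, and the difference from control was -0.69 ± 0.10 (SE, adjusted p = 0.0187). The largest rise of the class was that of Slc25a32, a carrier of folate. It read 9.32 and 9.09 on the control arrays, 9.92 and 9.87 on the miR-26a arrays and 9.55 and 9.14 on the sponge arrays, with both miR-26a arrays above the other 4 and a difference of 0.69 ± 0.10 (SE, adjusted p = 0.0176). Slc25a26, which brings in the methyl donor S-adenosylmethionine, gave 0.50 ± 0.09 (SE, adjusted p = 0.0288) with its brighter probe and 0.36 ± 0.09 (SE, adjusted p = 0.0677), not called, with the other. The other higher ones were the glutamate carrier Slc25a18 at 0.52 ± 0.10 (SE, adjusted p = 0.0362), the dicarboxylate carrier Slc25a10 at 0.45 ± 0.07 (SE, adjusted p = 0.0235) and the citrate carrier Slc25a1 at 0.42 ± 0.07 (SE, adjusted p = 0.0216). Slc25a10 read 8.39 and 8.33 on the control arrays, 8.76 and 8.85 on the miR-26a arrays and 7.96 and 7.92 on the sponge arrays, in the order sponge, control, miR-26a in both experiments. The ADP/ATP exchanger Slc25a5 and the mitochondrial iron carrier Slc25a37 gave 0.05 (adjusted p = 0.728) and 0.09 (adjusted p = 0.618). The calls of Slc25a16 and Slc25a32 were lost with either control array left out (adjusted p up to 0.151 and 0.13), and Slc25a1 kept its call in none of the 6 fits that left out 1 array. Slc25a18, Slc25a10 and Slc25a26 kept it in 2, 1 and 1 of those fits, none of them with either control array left out, and their adjusted p reached 0.238, 0.197 and 0.207 over the 6.

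Of 51 tested probes of ion carriers, from 41 genes, 2 were called lower and 5 higher. Among inorganic ion carriers, the phosphate carrier Slc20a2 was called higher with both probes, at 0.37 ± 0.07 (SE, adjusted p = 0.0325) and 0.48 ± 0.09 (SE, adjusted p = 0.0328), and its relative Slc20a1 gave 0.17 (adjusted p = 0.316). The anion exchanger Slc26a6 was called higher with 2 of 3 probes, at 0.61 ± 0.09 (SE, adjusted p = 0.0198) and 0.54 ± 0.10 (SE, adjusted p = 0.031), and the third gave 0.55 ± 0.15 (SE, adjusted p = 0.0764). The second of these called probes, at chr9:108763641-108763700 (mm9), lies apart from the others, at chr9:108815322-108815380 and chr9:108814756-108814815, and RefSeq lists Celsr3 as the protein-coding gene before Slc26a6. Whether this probe reads Slc26a6 RNA was not tested. No call of Slc20a2 or Slc26a6 remained with either control array left out, and over the 6 fits that left out 1 array the adjusted p reached 0.235 for Slc20a2 and 0.195 for Slc26a6.

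Among 24 tested metal carrier probes of 21 genes, 1 was called, the copper carrier Slc31a2. It read 7.51 and 7.42 on the control arrays, 7.92 and 8.31 on the miR-26a arrays and 7.48 and 7.57 on the sponge arrays with its brighter probe, a difference of 0.65 ± 0.12 (SE, adjusted p = 0.0337), and the other probe gave 0.41 ± 0.09 (SE, adjusted p = 0.051). The Slc31a2 call remained in 1 of the 6 fits that left out 1 array (adjusted p up to 0.203) and was lost with either control array left out. The iron carrier Slc11a2 gave -0.30 (adjusted p = 0.0582), the zinc exporter Slc30a1 0.12 (adjusted p = 0.365), and the zinc importers Slc39a6 and Slc39a10 -0.24 (adjusted p = 0.369) and -0.38 (adjusted p = 0.07). The iron exporter Slc40a1 had no member probe. Other listed ion carriers did not pass, with -0.22 (adjusted p = 0.124) for the sodium, potassium and chloride carrier Slc12a2 and -0.01 (adjusted p = 0.963) for the bicarbonate carrier Slc4a7.

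No probe was called in miR-26a against control among the 3 monocarboxylate, 6 nucleotide sugar, 11 lipid, choline or acyl and 11 organic ion, peptide or vesicular carrier probes, the 1 urea carrier probe and the 6 probes of proteins that are no carriers. The lactate carrier Slc16a1 read 5.84 and 6.01 on the control arrays, 5.79 and 5.41 on the miR-26a arrays and 4.98 and 5.85 on the sponge arrays, with its lowest value on 1 sponge array, and differed by -0.32 ± 0.27 (SE, adjusted p = 0.508). The choline carrier Slc44a1 gave -0.11 (adjusted p = 0.661). Slc16a3, the second lactate carrier, was a member but too dim to be tested.

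**Figure D3:**
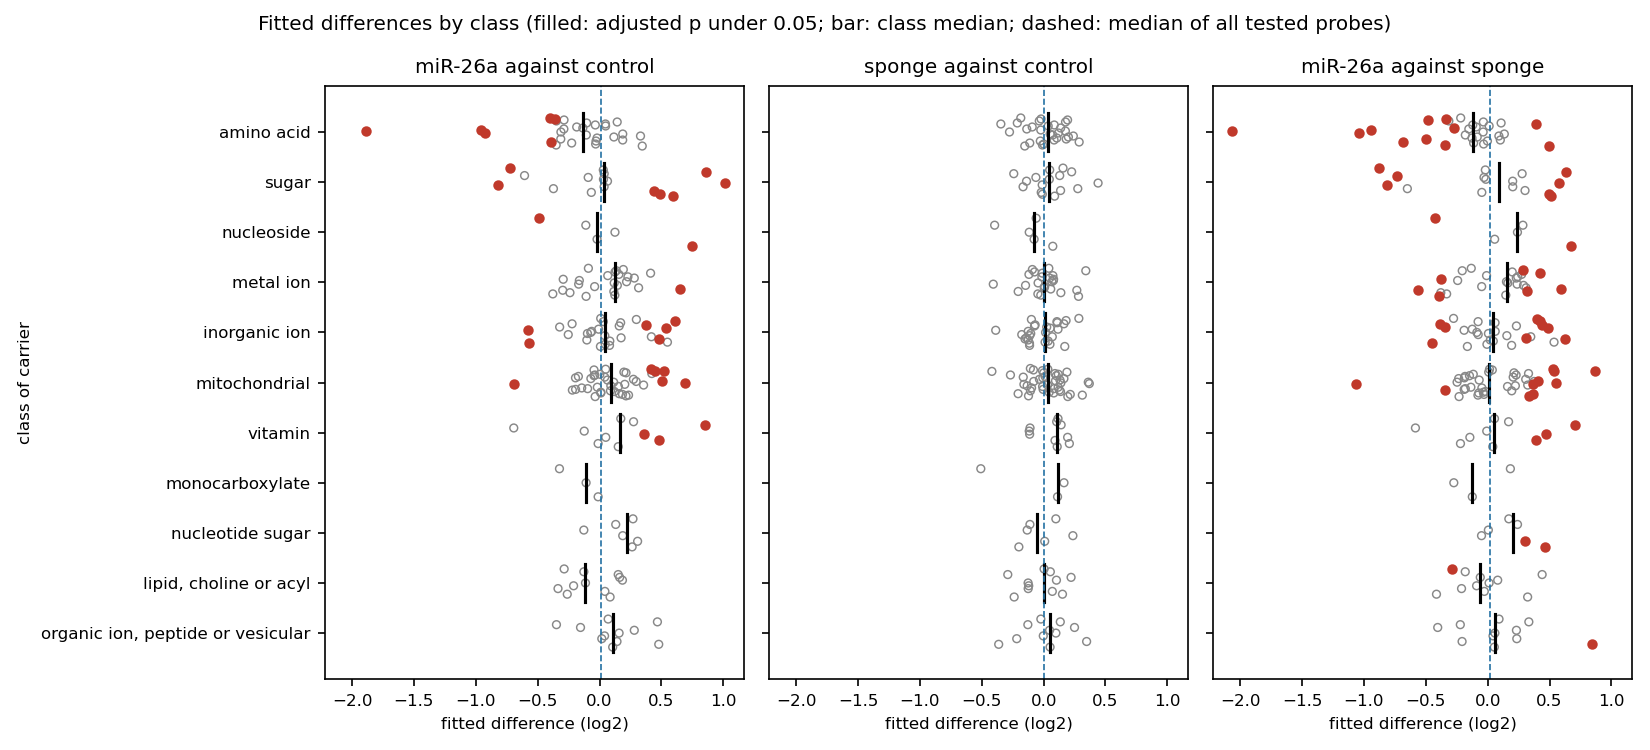
Fitted log2 difference of each tested solute carrier probe by class, in miR-26a against control, sponge against control and miR-26a against sponge; filled points have an adjusted p under 0.05, bars are class medians and the dashed line is the median of all tested probes. The urea carrier and the 6 probes of proteins that are no carriers are not drawn. The filled amino acid points of the first panel lie below 0 and the filled vitamin points above it, and the middle panel has no filled point.

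In sponge cells, none of the 189 solute carrier probes passed limma's threshold (adjusted p under 0.05) against control, where 0.00992% of all tested probes did, and no probe was called under any other setting run. At an unadjusted p under 0.05, 29 solute carrier probes passed (15.3%, beside 16.1% of all probes), 13 of them lower and 16 higher, where 8.72% and 7.38% of all probes were. The largest differences were 0.44 (adjusted p = 0.213) for Slc5a9, with a 95% interval of 0.24 to 0.64, and -0.51 (adjusted p = 0.41) for Slc16a1, with -1.19 to 0.17. Slc25a16 gave 0.37 (adjusted p = 0.233) and Slc25a10 -0.42 (adjusted p = 0.206). The median standard error of a probe was 0.08, and the median difference over the members was 0.02, beside 0.00476 over all probes. Both constructs were compared with the same 2 control arrays, so that their differences from control are not independent. For 2 carriers called in miR-26a cells, the interval in sponge cells was -0.19 to 0.14 for Slc7a1 and -0.10 to 0.28 for the brighter Slc19a1 probe. A missing call does not show that the sponge left a carrier unchanged.

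Between the 2 constructs, 53 of the 189 probes differed, with 22 lower and 31 higher in miR-26a than in sponge cells, from 21 and 27 genes. This was 11.6% and 16.4% of the members, beside 8.49% and 8.28% of all tested probes (16.8% in both directions together). Without sponge replicate 1 the call remained for 7 of the 53 and without sponge replicate 2 for 5. It remained for 28 with either control array left out, for 31 and 25 without miR-26a replicate 1 or 2, and for 14 when the experiment was not a block. Slc7a3 and Slc25a10 were called in all 6 fits that left out 1 array.

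Of 29 amino acid carrier probes, 9 were called lower and 2 higher in miR-26a than in sponge cells, and 18 did not pass. Slc38a1, which takes up glutamine with sodium, read 13.57 and 13.55 on the control arrays, 13.25 and 13.23 on the miR-26a arrays and 13.68 and 13.80 on the sponge arrays and differed between the constructs by -0.50 ± 0.07 (SE, adjusted p = 0.0136). Its 2 dimmer probes gave -0.31 (adjusted p = 0.0561) and -0.13 (adjusted p = 0.345). Slc7a7 gave -0.68 ± 0.07 (SE, adjusted p = 0.00605) and Slc7a1 -0.34 ± 0.07 (SE, adjusted p = 0.0274). Slc43a1 gave -0.27 (adjusted p = 0.0447), and Slc43a3 of the same family -0.34 (adjusted p = 0.042). Slc43a3 is counted among the amino acid carriers by its family number alone, and what it carries was not tested. The 2 higher ones were Slc38a7 at 0.50 (adjusted p = 0.0159) and Slc38a10 at 0.39 (adjusted p = 0.0417). Slc38a9, the arginine sensor of the lysosome, had 3 probes that did not move together. Its middle one was lower, at -0.48 ± 0.09 (SE, adjusted p = 0.0212), the brightest gave -0.18 (adjusted p = 0.171) and the dimmest 0.09 (adjusted p = 0.467).

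Metal carriers went both ways, with 3 probes lower and 4 higher of 24. Slc11a2, which moves ferrous iron and manganese with protons, read 9.34 and 9.35 on the control arrays, 9.01 and 9.08 on the miR-26a arrays and 9.64 and 9.58 on the sponge arrays with its brighter probe. The 3 groups were ordered miR-26a, control, sponge with no overlap, and the difference between the constructs was -0.57 ± 0.07 (SE, adjusted p = 0.00898). The dimmer probe went the other way in sponge cells, at 6.50 and 6.36 on the control arrays, 6.19 and 6.33 on the miR-26a arrays and 5.88 and 6.17 on the sponge arrays, and gave 0.24 (adjusted p = 0.203) between the constructs. The zinc carriers Slc30a5 and Slc39a4 were lower, at -0.37 (adjusted p = 0.0222) and -0.39 (adjusted p = 0.0233), and Slc30a1 and Slc39a1 were higher, at 0.32 (adjusted p = 0.0367) and 0.28 (adjusted p = 0.0437). Both probes of Slc31a2 were higher, at 0.59 (adjusted p = 0.031) and 0.42 (adjusted p = 0.035). Among the 27 probes of inorganic ion carriers, 3 were lower and 6 higher. Of the chloride-coupled Slc12 family, Slc12a2 was lower, at -0.39 (adjusted p = 0.025), as was Slc12a4, at -0.35 (adjusted p = 0.0327), and Slc12a9 was higher, at 0.31 (adjusted p = 0.0366).

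Mitochondrial carriers had 2 probes lower and 8 higher of 40. The largest rise between the constructs among the 189 tested probes was that of Slc25a10, at 0.86 ± 0.07 (SE, adjusted p = 0.00365), and the largest fall after Slc7a3 that of Slc25a16, at -1.06 ± 0.10 (SE, adjusted p = 0.00468). Slc25a1 gave 0.53 (adjusted p = 0.00946), Slc25a18 0.53 (adjusted p = 0.0251) and Slc25a32 0.55 (adjusted p = 0.0222). One of the 2 probes of the calcium-regulated Slc25a25 was called, at 0.36 (adjusted p = 0.0238), and the other gave 0.21 (adjusted p = 0.116). Among sugar carriers 3 probes were lower and 4 higher of 16. Slc45a4 read 8.75 and 8.43 on the control arrays, 7.87 and 8.10 on the miR-26a arrays and 8.76 and 8.68 on the sponge arrays and gave -0.74 ± 0.13 (SE, adjusted p = 0.0229) between the constructs. Slc15a3, a lysosomal carrier of histidine and peptides, read 10.04 and 10.11 on the control arrays, 10.32 and 10.79 on the miR-26a arrays and 9.53 and 9.89 on the sponge arrays. Its miR-26a arrays were the highest and its sponge arrays the lowest of each experiment, with a difference of 0.84 ± 0.11 (SE, adjusted p = 0.0101). The vitamin carriers Slc5a6 and Slc19a1 were higher again, at 0.71 (adjusted p = 0.0142) and 0.39 (adjusted p = 0.0262), and so was the dimmer probe of Slc19a1, at 0.47 (adjusted p = 0.0181). One of 2 probes of the acetyl-CoA carrier Slc33a1 was lower, at -0.29 (adjusted p = 0.0483), and the other gave -0.41 (adjusted p = 0.0693). The nucleotide sugar carriers Slc35a3 and Slc35a4 were higher with 1 probe each, at 0.30 (adjusted p = 0.0454) and 0.46 (adjusted p = 0.0136), while the other Slc35a3 probe gave -0.05 (adjusted p = 0.635).

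In 29 genes with 2 or 3 tested probes (62 probes), all probes of the gene had the same sign in miR-26a against control in 23. Every probe was called in 3 of these genes, namely Slc6a9, whose 2 probes are largely the same sequence, Slc19a1 and Slc20a2, and some but not every probe in 4, among them Slc25a26, Slc26a6 and Slc31a2. In miR-26a against sponge the sign was shared in 22 genes, every probe was called in 4 and some in 10. Probes of a gene share their RNA, and alternative ends of the transcript were not examined.

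**Figure D4:**
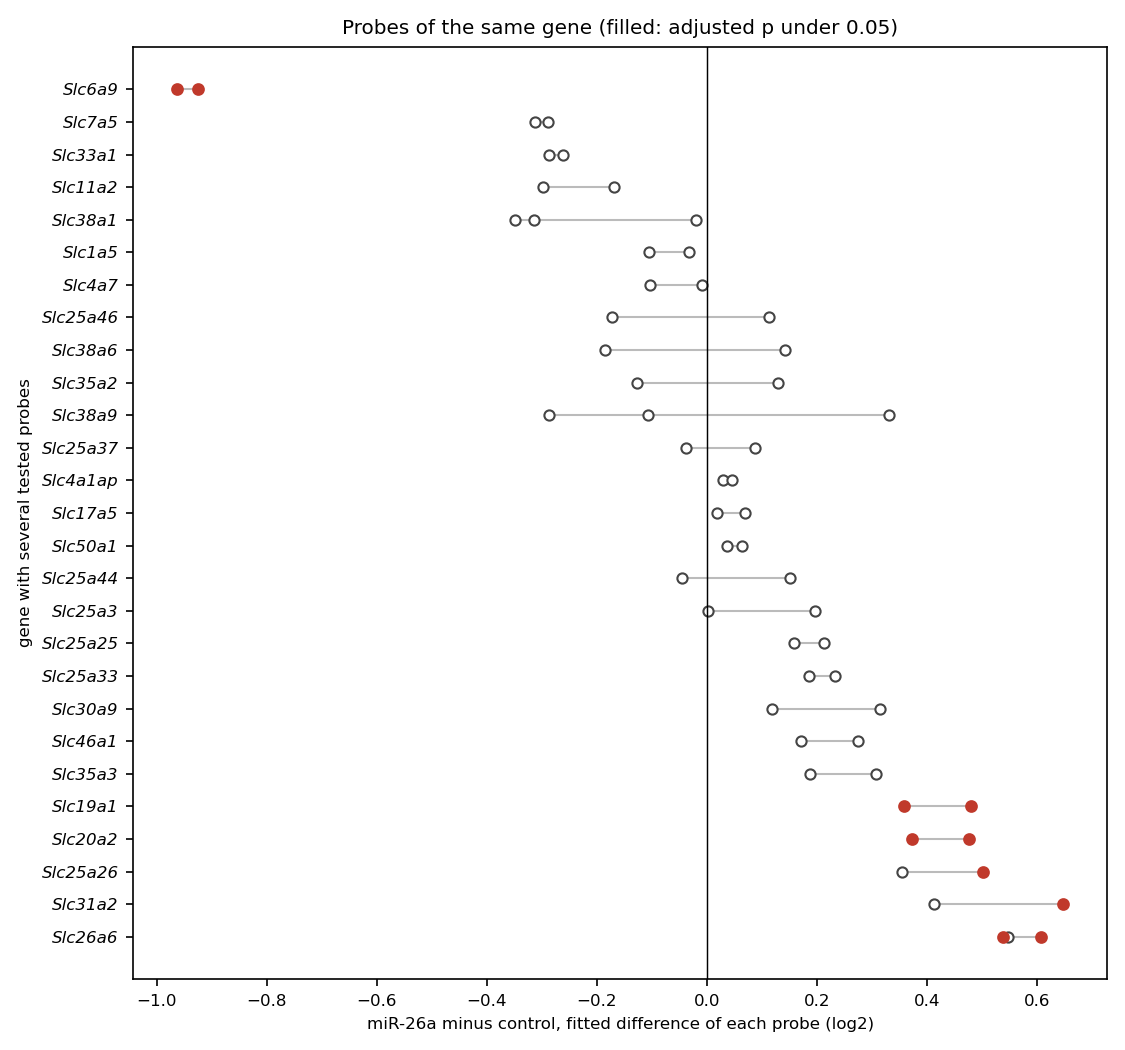
Fitted difference of miR-26a from control, in log2 units, of every tested probe of 27 of the 29 solute carrier genes with several tested probes; filled points have an adjusted p under 0.05 and lines join the probes of a gene. The probes of Slc6a9, Slc19a1, Slc20a2 and Slc26a6 lie close together, whereas those of Slc38a9 spread to both sides of 0.

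Few carrier probes held a match to the miR-26 seed. The word TACTTGAA, its first 7 letters and its last 7 letters were searched in the 60 bases of each probe, on the printed strand only. Of the 189 tested solute carrier probes 1 held any of the words (0.529%), beside 0.987% of all tested probes. That probe, of the bile acid and fatty acid enzyme gene Slc27a5, holds the last 7 letters, shown in capitals within its last 30 bases.
Slc27a5 probe at chr7:13573701-13573760 (mm9, minus strand): agtacttagagaataaACTTGAAtgtgtat
It read 6.73 and 6.83 on the control arrays, 6.88 and 7.0 on the miR-26a arrays and 7.0 and 7.01 on the sponge arrays, and its difference from control in miR-26a cells was 0.16 ± 0.07 (SE, adjusted p = 0.212). A probe covers a short part of a transcript, and a missing match there says nothing of the rest.

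Carriers work with pumps, chaperones and regulators, and 26 such genes had been listed beside them, with earlier results of these arrays known. Of these, 19 genes with 28 probes were tested. In miR-26a against control 3 probes were lower and 1 higher, beside 5.14% and 4.50% of all tested probes, and none was called in sponge cells. Atp1b1, a beta subunit of the sodium pump that supplies the gradient for sodium-coupled carriers, read 12.76 and 12.73 on the control arrays, 11.54 and 11.46 on the miR-26a arrays and 12.93 and 12.95 on the sponge arrays. Its miR-26a arrays lay more than 1 log2 unit below all others, a difference of -1.24 ± 0.07 (SE, adjusted p = 0.00308). The beta subunit Atp1b3 gave 0.06 ± 0.07 (SE, adjusted p = 0.675) and was not called. Slco4a1, an organic anion carrier outside the Slc naming, read 13.17 and 13.28 on the control arrays, 12.38 and 12.53 on the miR-26a arrays and 13.32 and 13.45 on the sponge arrays, with both miR-26a arrays lowest and a difference of -0.77 ± 0.07 (SE, adjusted p = 0.00615).

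The brighter of 2 probes of Atf4, the transcription factor of the amino acid response, was not called, at -0.30 ± 0.09 (SE, adjusted p = 0.0919). The dimmer Atf4 probe was called lower, at -0.51 ± 0.07 (SE, adjusted p = 0.015). Mtf1, the zinc-sensing transcription factor, was higher with 1 of 2 tested probes, at 0.38 ± 0.07 (SE, adjusted p = 0.03), and the other gave 0.29 ± 0.13 (SE, adjusted p = 0.219). Bsg, which escorts lactate carriers to the membrane, gave 0.10 ± 0.08 (SE, adjusted p = 0.477), and the ferritin chain Fth1 0.27 ± 0.07 (SE, adjusted p = 0.0659). Between the constructs 3 probes were lower and 4 higher in miR-26a cells, beside 8.49% and 8.28% of all tested probes. Both probes of Txnip, which restrains glucose uptake, were among the higher ones, at 0.62 ± 0.11 (SE, adjusted p = 0.0193) and 0.75 ± 0.10 (SE, adjusted p = 0.0113).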

How the data were processed

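RNA of 1676 pre-B cells with a control vector, miR-26a or the miR-26 sponge was measured on 6 one-colour Agilent mouse arrays of 1 slide and 1 scan, 2 per group. The authors deposited the scanner output with spot intensities (mean and background-subtracted processed signals) and a table of quantile-normalized intensities. The submitters' processing notes name Agilent Feature Extraction 10.7.1.1 and the file headers give 10.7.3.1. Groups and replicates come from the sample labels.

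Control spots were left out. Quantile normalization was applied to the processed signals of all other spots, and log2 values were averaged per probe. Outlier-flagged spots were left out of this average where the probe had an unflagged spot, and kept where all its spots were flagged. Probes well above background on at least 1 array with a signal above 50 on at least 4 arrays were tested. A linear model with terms for group and experiment was fitted to the 6 arrays together (limma 3.58.1, R 4.3.3), since the methods normalize each experiment to its control. Arrays of the same number deviated together, with correlations of 0.379, 0.588 and 0.454. Control sample titles quote earlier accessions, so these arrays may come from an earlier series. The probe positions are those of the array design (mm9). By accession 221 of the 227 member probes matched RefSeq, each under the same symbol. Classes of carriers were assigned by family number, so that a class can hold a member that carries another substrate.

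The members and all gene lists were chosen with earlier results of these data known. Named genes were up to 12 largest falls and 12 largest rises per comparison with the same direction in both experiments, a fixed list of known carriers, and genes whose probes differed in call. Most other carriers given with values were picked after their values were seen and are not counted among the named genes. They include Slc43a1, Slc43a3, Slc38a7, Slc38a10, Slc30a5, Slc39a1, Slc39a4, Slc12a4, Slc12a9, Slc35a4 and Slc46a1. The brightest probe stood for a gene. The Benjamini-Hochberg adjustment ran over all tested probes. The fit was tested on simulated data. Alternatives changed the block, scaling, background correction, filter, flags, averaging or left out 1 array. The files hold no counts, and with 2 arrays per group the SE and p-values rest on a spread shared by all groups. As limma draws this spread towards that of all fitted probes, it depends on which probes are fitted. Tables and plots used numpy 2.4.6, pandas 2.3.3, scipy 1.17.1 and matplotlib 3.10.9. Some measured genes are counted in the totals but not reported here by name, and they are not drawn where a plot names its genes.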

Additional observations from a re-analysis of the deposited data

How the results depend on the processing

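No value of a named gene that was called changed sign under any alternative, and the 31 probes called in miR-26a against control and the 53 called in miR-26a against sponge kept their direction in every fit of single probes. The number of calls did change. With no replicate block, 2 members were lower and 1 higher in miR-26a against control, and 9 lower and 5 higher in miR-26a against sponge. With all probes well above background on all 6 arrays fitted (24952 probes, 227 members), 4 were lower and 3 higher in the first comparison and 10 lower and 11 higher in the second. With all 55681 probes fitted, 0 were called in any comparison. With normexp background correction, 22 members were lower in miR-26a against control. Leaving out 1 array gave 1 to 12 lower and 0 to 16 higher members in miR-26a against control, and 3 to 16 lower and 1 to 20 higher in miR-26a against sponge. Such a fit has fewer arrays, and a group left with 1 array is assumed to vary like the others. Scaling to the 75th percentile, the deposited values, ignored outlier flags and averaged probes of a gene left these counts within 1.5 times. Ignoring the flags could change only probes with several spots of which some, but not all, were flagged. Sponge against control had 0 member calls under every alternative. Among the named genes, 162 of 770 values in miR-26a against control and 171 of 770 in miR-26a against sponge lost their call under an alternative, and 13 and 6 gained one. The 770 values include those of named genes not called in the main fit, which had no call to lose. The cause of the lost calls was not tested. Dim probes are compressed near background, so small or missing differences there are least certain.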

Other observations

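The 38 dim solute carrier probes outside the test had log2 signals of 3.77 to 8.37. When limma was fitted to every probe well above background on all 6 arrays, 1 of them was called in miR-26a against control, Slc5a3, a sodium-coupled carrier of myo-inositol like Slc5a11. It read 4.30 and 3.77 on the control arrays, 5.11 and 4.80 on the miR-26a arrays and 4.48 and 4.28 on the sponge arrays, a difference of 0.92 ± 0.10 (SE, adjusted p = 0.041). In miR-26a against sponge 2 were called, the magnesium carrier Slc41a3 at 1.13 ± 0.09 (SE, adjusted p = 0.0213) and the sodium and calcium exchanger Slc24a3 at -0.93 ± 0.13 (SE, adjusted p = 0.0398). The other member probe of Slc5a3 was not called in miR-26a against control, either in this fit or in the main one. Slc5a3, Slc41a3 and Slc24a3 were picked for their values.

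A further 231 solute carrier probes lay outside the rule. Of these, 189 had no spot well above background on any array, and 42 had such a spot on at least 1 array. In the counts below a probe is well above background on an array only where all its spots are, which leaves Slc2a4 of the 42 on no array. The lowest processed signal of a member on any array was 13.8, and the highest signal not flagged well above background among the probes outside was 15.3. On both control arrays but neither miR-26a array 8 of these probes were well above background, and on both miR-26a arrays but neither control array there were 0. Over all 30729 probes of the array that were not well above background on every array, 233 and 176 were (0.758% and 0.573%, beside 3.46% and 0 of the solute carrier probes). Against the sponge arrays the counts were 4 and 0 for solute carriers and 259 and 177 over all probes. One of the 8 was Slc2a6, a glucose carrier of lysosomes, with processed signals of 21.2 and 18 on the control arrays, 6.29 and 11 on the miR-26a arrays and 41.9 and 26 on the sponge arrays. Another was Slc28a3, which takes up nucleosides with sodium, with 17.7 and 19.2 on the control arrays, 9.93 and 4.22 on the miR-26a arrays and 10.9 and 15.3 on the sponge arrays. A signal that is not well above background gives only a bound, and no test was run on these probes.

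A few members stood out by single arrays or by their level. Slc16a8, a lactate carrier of the eye, read 4.49 and 8.37 on the control arrays, 4.85 and 4.74 on the miR-26a arrays and 4.59 and 4.84 on the sponge arrays, so that 1 control array was far above the other 5. Slc23a3 read 6.03 and 7.44 on the control arrays, 5.90 and 6.18 on the miR-26a arrays and 6.61 and 6.64 on the sponge arrays, again highest on the second control array. Slc45a1 read 8.08 and 9.0 on the control arrays, 7.89 and 9.26 on the miR-26a arrays and 7.99 and 9.18 on the sponge arrays and split by experiment rather than by construct. The probe named for Slc10a1, the bile acid carrier of liver cells, read 17.92 and 18.09 on the control arrays, 18.04 and 18.06 on the miR-26a arrays and 17.98 and 18.17 on the sponge arrays. RefSeq lists Srsf5, a splicing factor gene, next to Slc10a1, and which transcript the probe reads was not tested.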
